A study of Mus musculus with 44 samples.

Results

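Oxidative phosphorylation is carried out in the inner mitochondrial membrane by 5 protein complexes, and most of their subunits are encoded in the nucleus. The loci examined here carry a single gene symbol of that kind: names beginning with Ndufa, Ndufb, Ndufc, Ndufs or Ndufv (complex I), Sdha to Sdhd (complex II), Uqcr names and Cyc1 (complex III), Cox4 to Cox8 names (complex IV) and Atp5 names (complex V), with the Ndufaf assembly factors left out. The rule found 85 of the 13218 deposited loci, under 79 symbols. Of these loci, 81 belong to subunits, with 38 in complex I, 4 in complex II, 10 in complex III, 14 in complex IV and 15 in complex V. The other 4 carry an Atp5 name but are no subunits of the enzyme (the pseudogenes Atp5k-ps2 and Atp5l2-ps, and Atp5s and Atp5sl). Ndufa4 is counted in complex IV, where its protein is found, and Cox7a2l, a factor that joins complexes III and IV, is counted there too.

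Complexes I and II take electrons from NADH and succinate, complex III passes them to cytochrome c, and complex IV hands them to oxygen. Complexes I, III and IV pump protons as they do so, and complex V, the ATP synthase, uses the proton gradient to make ATP. Neurons draw most of their ATP for ion pumping and synaptic transmission from this chain, and several complexes also hold a few subunits read from the mitochondrial genome. Transcription factors of the NRF1, GABP (ETS family), YY1 and CREB families are known to act at many promoters of the nuclear subunits.

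The RNA came from the hippocampus of C57BL/6J mice, with 44 libraries in all. The groups combined 3 ages with 2 diet labels, CD and MR, where MR is taken to mean the restricted methionine of the series title and CD its control. There were 6 libraries of CD and 7 of MR at 5 months, 8 of each at 15 months, and 8 of CD and 7 of MR at 18 months, written below as 5M-CD, 5M-MR and so on. Total RNA of whole tissue was sequenced, so fewer cells of a type and less RNA per cell cannot be told apart, and the sex of the mice was not given. The labels do not say that each library is a separate mouse, so p-values measure only the spread between these libraries, which may in part be technical.

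Values are FPKM, fragments scaled for transcript length and library size, as deposited. They hold no read counts, so depth is unknown and counting error cannot be stated. Sums of FPKM over loci ran from 213116 to 282327. Slc17a7, the vesicular glutamate transporter of excitatory neurons, lay between 162 and 633 FPKM and Ttr, which marks the choroid plexus beside the hippocampus, between 7.72 and 4910. All 85 loci passed the filter of at least 1 FPKM in at least 6 libraries. Differences between groups are given on the log2(FPKM + 1) scale from a limma fit over the 13009 loci kept, with standard errors (SE) and Benjamini-Hochberg adjusted p over all of them, called at 0.05. On this scale the change of a gene with low FPKM is understated.

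The promoters of 5 subunit genes are shown as examples, of which the first 4 rose and the last fell between 5 and 15 months under MR. Other members that rose by more than Cox6a1 are not shown. Motifs were not compared between members that rose and members that fell. The sequences run from 250 bases before to 50 bases after the annotated start (RefSeq, GRCm38.p6, 5′ to 3′ on the gene's strand). Capitals mark matches to any of 4 motifs searched on both strands: the NRF1 palindrome, the ETS element CCGGAAG, which reads CTTCCGG on the other strand, the YY1 element AAGATGGC and the CRE TGACGTCA.
Uqcr11, chr10:80406772-80407071, minus strand: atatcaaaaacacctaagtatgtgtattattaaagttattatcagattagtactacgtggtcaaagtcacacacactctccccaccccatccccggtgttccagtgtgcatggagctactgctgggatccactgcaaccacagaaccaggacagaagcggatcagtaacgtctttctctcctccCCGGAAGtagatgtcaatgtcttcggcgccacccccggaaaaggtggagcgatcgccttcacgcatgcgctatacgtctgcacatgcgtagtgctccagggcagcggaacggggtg
Atp5e, chr2:174464052-174464351, minus strand: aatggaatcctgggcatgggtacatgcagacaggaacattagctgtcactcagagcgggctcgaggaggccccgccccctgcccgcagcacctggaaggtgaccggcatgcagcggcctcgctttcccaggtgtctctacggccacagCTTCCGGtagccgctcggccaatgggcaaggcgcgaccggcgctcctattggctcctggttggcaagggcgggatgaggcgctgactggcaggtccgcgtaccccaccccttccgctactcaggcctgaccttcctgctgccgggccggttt
Atp5j2, chr5:145191492-145191791, minus strand: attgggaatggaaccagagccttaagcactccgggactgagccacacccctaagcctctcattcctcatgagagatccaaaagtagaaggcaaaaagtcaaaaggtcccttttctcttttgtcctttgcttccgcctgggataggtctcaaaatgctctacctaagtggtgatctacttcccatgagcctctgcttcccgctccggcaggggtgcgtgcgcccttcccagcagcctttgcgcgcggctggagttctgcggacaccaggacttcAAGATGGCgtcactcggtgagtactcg
Cox6a1, chr5:115348909-115349208, minus strand: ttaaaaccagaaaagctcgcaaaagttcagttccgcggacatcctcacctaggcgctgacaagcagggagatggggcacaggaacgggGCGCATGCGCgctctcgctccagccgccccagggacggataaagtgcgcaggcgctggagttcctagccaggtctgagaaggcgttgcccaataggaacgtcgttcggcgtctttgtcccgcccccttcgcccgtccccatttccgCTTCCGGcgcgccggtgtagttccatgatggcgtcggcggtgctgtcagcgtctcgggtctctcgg
Sdha, chr13:74350191-74350490, minus strand: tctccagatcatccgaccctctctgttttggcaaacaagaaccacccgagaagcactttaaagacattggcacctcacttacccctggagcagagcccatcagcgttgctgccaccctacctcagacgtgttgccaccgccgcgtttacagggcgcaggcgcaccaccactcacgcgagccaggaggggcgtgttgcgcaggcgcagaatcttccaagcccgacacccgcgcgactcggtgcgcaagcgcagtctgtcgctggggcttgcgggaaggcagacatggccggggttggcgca
Uqcr11 and Atp5e each held 1 ETS element, Atp5j2 held 1 YY1 element close to its start, Cox6a1 held 1 NRF1 palindrome and 1 ETS element, and Sdha held none of the 4. Promoters were found for 61 of the 75 subunit genes. The NRF1 palindrome was in 5 of them (8.20%, against 2.28% of the promoters of genes tested and 1.07% of all genes in the table). The ETS element was in 14 (23.0%, against 19.96% and 9.93%, so close to the share of the genes tested), the YY1 element in 7 (11.5%, against 5.63% and 3.19%) and the CRE in 4 (6.56%, against 3.75% and 2.03%). At least 1 of the 4 was in 27 (44.3%, against 28.6% and 14.9%). A match describes the letters of this window and is no evidence of binding.

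The subunit loci were among the abundant transcripts of the hippocampus, and complexes IV and V lay above the rest. The 85 loci together made up 3.68% to 5.49% of a library's FPKM sum, with a median of 4.39%. The median level of the 85 loci was 71.4 FPKM, against 4.79 for all loci tested. By complex it was 66.5 FPKM in I, 60.9 in II, 65.9 in III, 132 in IV and 147 in V. Their transcripts were short, with a median length of 738.5 bases against 2609 for all loci with a length. The SD of log2(FPKM + 1) within groups had a median of 0.277, against 0.470 for all loci and 0.283 for loci with a median of at least 25 FPKM.

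Complex I held its highest transcript in Ndufb9, an accessory subunit of the membrane arm, with a mean of 314 FPKM over the 44 libraries, and its lowest in Ndufs1, the largest core subunit of the arm that oxidises NADH, with 8.48. Ndufs4, an accessory subunit whose loss causes Leigh syndrome, varied most within groups among the genes of complex I with a single locus (SD 0.42 on the log2 scale). The core subunits Ndufv2, Ndufs8 and Ndufv1, which bind iron-sulphur clusters or flavin, had means of 54.2, 37.5 and 27.3 FPKM. In complex II, Sdhb, the iron-sulphur subunit, was at 103 FPKM, the membrane anchor Sdhc at 70.7, the flavoprotein Sdha at 48.6 and the anchor Sdhd at 32.5. In complex III the small subunits Uqcr11, Uqcrh and Uqcr10 (277, 227 and 194 FPKM) lay above the cytochrome Cyc1 (69.8), the core protein Uqcrc2 (65.0) and the Rieske protein Uqcrfs1 (62.0), while among its genes with a single locus the small subunit Uqcrb was lowest (23.4) and Uqcrq varied most (SD 0.50).

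Complex IV spanned the widest range, because several of its subunits come in forms made by different genes. Cox8a, Cox6a1 and Cox4i1, the forms found in most tissues, had means of 822, 753 and 712 FPKM and were the 3 highest of all 85 loci. Their counterparts were low: Cox8b and Cox6a2, the forms of heart and skeletal muscle, had means of 3.99 and 7.56 FPKM, the testis form Cox6b2 1.77, and Cox4i2, a form of lung and oxygen-sensing cells, 1.29. Cox4i2 was listed at 0 in 18 of the 44 libraries. In complex V the catalytic subunit Atp5b was highest (381 FPKM). The 3 genes of the c ring, which encode the same mature protein, ranked Atp5g3 (272), Atp5g2 (87.5) and Atp5g1 (59.8). Among genes of complex V with a single locus, Atp5f1, a stalk subunit, varied most within groups (SD 0.42).

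**Figure D1:**
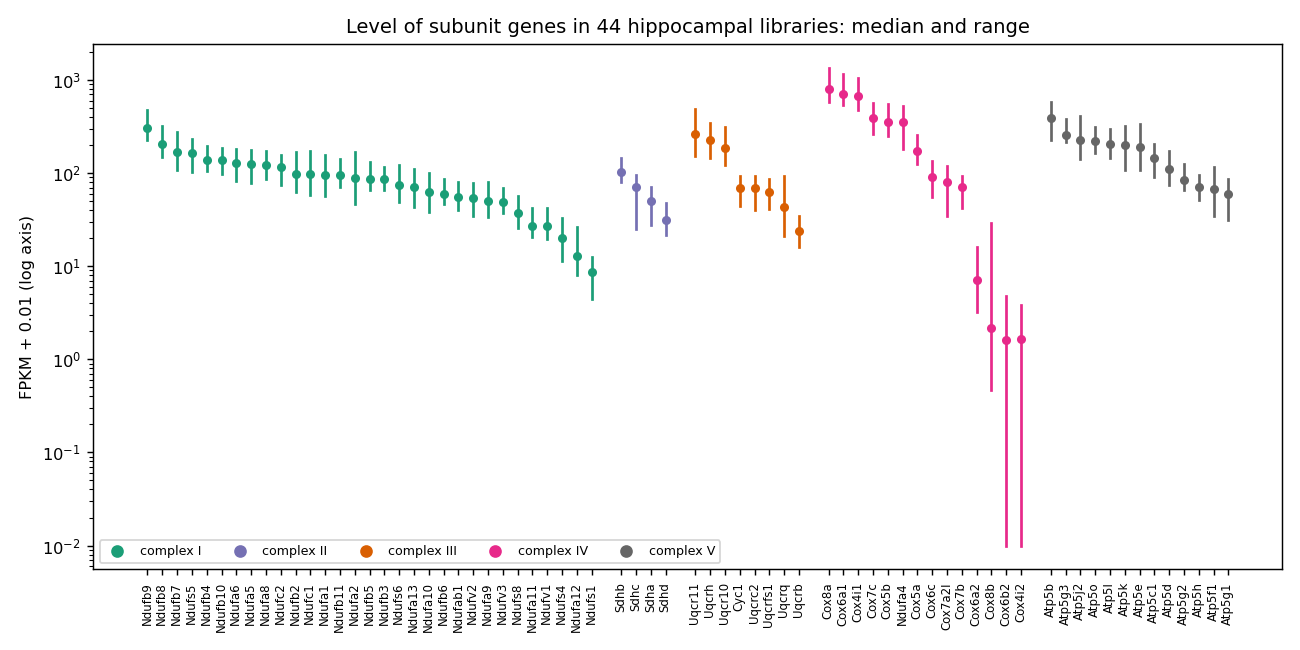
Median (point) and range (line) of FPKM + 0.01 on a log axis for subunit genes with a single locus, over 44 libraries, grouped by complex. Cox8a, Cox6a1 and Cox4i1 stand highest, and Cox8b, Cox6a2, Cox6b2 and Cox4i2 lie far below the other genes of complex IV.

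Cox8b stood out by its spread (SD 0.91). It was at 28.8 FPKM in 18M-CD 7, 14.4 in 15M-CD 2, 11.8 in 18M-MR 6, 11.003 in 18M-CD 2 and 9.20 in 5M-MR 2, and its group medians lay between 1.34 and 4.09. In the same 5 libraries Ttr was at 3621, 3356, 2619, 805 and 3036 FPKM, against a median of 112 over all libraries. In 5M-CD 10, with the highest Ttr of 4910 FPKM, Cox8b was at 3.69. Ttr was also above 805 FPKM in 5M-MR 6 (2728), 5M-MR 5 (1378), 18M-CD 5 (1200), 18M-MR 4 (1010) and 15M-MR 15 (900). None of these is among the 5 libraries listed for Cox8b. Of the list of 8 choroid plexus and ependymal markers 4 were found, with summed levels from 7.94 to 4934 FPKM at 5 months, 13.7 to 3375 at 15 months and 16.7 to 3647 at 18 months. The part of that tissue in the level of Cox8b was not tested.

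A few symbols stood on more than 1 locus: Ndufa7 on 4, and Ndufs3, Uqcrc1 and Atp5a1 on 2 each. How reads were split between them is unknown, so they are uncertain. The second locus of Ndufs3 was listed at 0 in 15 libraries, that of Uqcrc1 in 19 and that of Atp5a1 in 23, while the same loci reached 56.5, 52.7 and 89.2 FPKM in others. Statements on the level of a complex in a library therefore use the 75 symbols with a single locus, 71 of them subunits.

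The diet comparisons ask whether restriction moved the subunits at a given age, and no member passed the test in any of them. Of 85 members 0 were called at 5, 15 and 18 months and over the average of the ages, where the limma fit called 0% of all loci in each. Without adjustment, 1, 1, 1 and 0 members had p under 0.05, as had 4.61%, 2.27%, 4.69% and 2.53% of all loci. The median difference of the members, MR minus CD, was −0.045 at 5 months, 0.055 at 15 months, 0.0098 at 18 months and 0.0079 on average. Over all loci it was −0.023, 0.0077, −0.032 and −0.0096. Leaving out 1 library changed the sign of the member median at 5 months (from −0.12 without 5M-MR 4 to 0.0069 without 5M-MR 8), at 18 months (from −0.067 without 18M-MR 1 to 0.057 without 18M-MR 2) and on average (from −0.018 without 18M-MR 1 to 0.024 without 15M-CD 2). At 15 months it ran from 0.0050 without 15M-MR 2 to 0.10 without 15M-MR 8.

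The smallest p among members at 5 months belonged to Ndufv1, the subunit that takes electrons from NADH. It had a lowest, median and highest value of 24.0, 27.6 and 30.4 FPKM in 5M-CD and of 28.7, 33.4 and 41.8 in 5M-MR. The groups overlapped, and the difference of 0.27 (SE 0.112) had an adjusted p of 0.937 in limma. Next came 1 of the 4 loci of Ndufa7 (−1.91, uncertain) and Cox7b, a small subunit of complex IV (−0.34). At 15 months the smallest p belonged to Atp5s, no subunit (0.94, SE 0.376), followed by loci of Uqcrc1 (0.21) and Atp5a1 (−2.33), both uncertain. At 18 months it was the muscle form Cox6a2 (0.51, SE 0.237), followed by a locus of Ndufa7 (1.68, uncertain) and Cox6b2 (−0.45). On average over ages it was Ndufv1 (0.11), Cox4i2 (0.35) and a locus of Ndufa7 (0.46). The median half-width of a 95% interval for a gene with a single locus was 0.305 at 5 months, 0.274 at 15 months, 0.284 at 18 months and 0.166 on average. In the average over ages, 72 of 75 such genes had an interval lying wholly between −0.5 and 0.5. Differences inside these widths could not be told from 0.

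Lanes followed the groups closely, and values within a lane differed from the pooled ones. On lane 1, 2 libraries of 5M-MR against 5 of 5M-CD gave a member median of 0.119, and on lane 4, 8 of 15M-MR against 3 of 15M-CD gave 0.194. On lane 3, 6 of 18M-MR against 1 of 18M-CD gave 0.258. The medians of all loci were 0.0039, −0.024 and −0.0085. The numbers of members above 0 were 59, 79 and 71 of 85. No test was made within lanes, and with lane as a factor in the fit 0 members passed in each of the 4 diet comparisons. The shares of all loci in those comparisons were not recorded, so these counts have no background to be read against.

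Age under CD called no member either. At 15 against 5 months 0 of 85 were called (background 0.292%), at 18 against 5 months 0 (background 0.231%) and at 18 against 15 months 0 (background 0.0769%). Without adjustment 11 members were higher and 0 lower at 15 months, 8 higher and 3 lower at 18 months, and 1 each way at 18 against 15 months. The unadjusted shares of all loci in limma were 8.23%, 16.8% and 6.62%. Member medians were 0.12, 0.070 and −0.058, against 0.029, −0.021 and −0.022 for all loci. Without 1 library the member medians ran from 0.073 (15M-CD 2) to 0.16 (15M-CD 7), from 0.0055 (5M-CD 2) to 0.11 (5M-CD 4), and from −0.11 (18M-CD 1) to −0.017 (15M-CD 2). The smallest p at 15 months belonged to Atp5j2, a membrane subunit of the ATP synthase (0.40, SE 0.151, limma adjusted p = 0.465), and at 18 months, against either younger age, to Cox8b (1.36, SE 0.475, limma adjusted p = 0.207 against 5 months). Next at 15 months came Atp5k-ps2 (0.45) and Atp5e (0.40), at 18 against 5 months 1 locus of Atp5a1 (−0.33, uncertain) and Ndufb7 (0.37), and at 18 against 15 months Sdhd (−0.33) and Cox8a (−0.27). In 18M-CD, Cox8b had a lowest, median and highest value of 1.59, 4.09 and 28.8 FPKM, and in 5M-CD of 1.02, 1.34 and 3.69.

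Between 5 and 15 months under MR, many small subunits rose and few members fell. Of 85 members, 24 were called, 21 higher and 3 lower. Over all loci 18.3% were called, 11.9% higher and 6.46% lower. The share of members lower was below that of all loci. The median difference of the members was 0.24, against 0.0052 for all loci. Complex I had 11 higher and 1 lower, complex III 2 higher, complex IV 4 higher, complex V 4 higher and 1 lower, and complex II 1 lower. The largest changes were close to 0.7 on the log2 scale. All 8 libraries of 15M-MR were on lane 4 and those of 5M-MR on lanes 1 and 2, so lane and age cannot be told apart here, and with lane as a factor 0 members passed (0.108% of all loci).

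**Figure D2:**
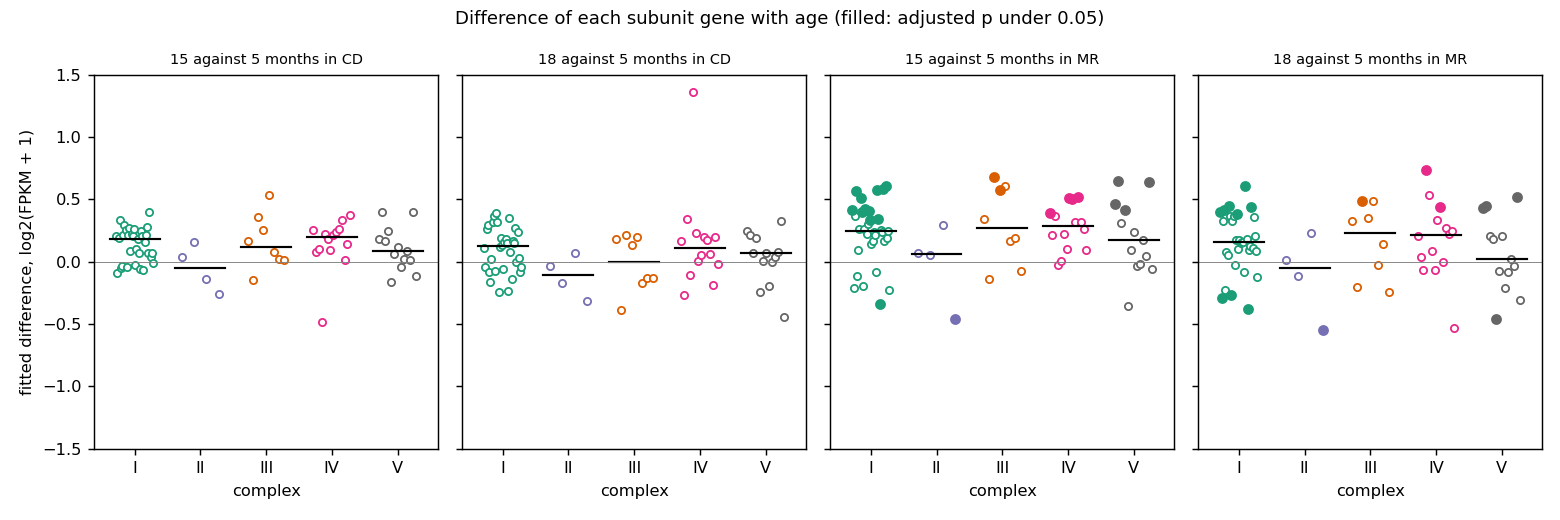
Fitted difference on the log2(FPKM + 1) scale for each of the 71 subunit genes with a single locus, by complex, at 15 and 18 against 5 months under CD and under MR. Filled points passed the test, bars are medians, and filled points appear only under MR, where most lie above 0 and Sdha of complex II lies below.

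In complex III, Uqcr11, a small subunit at the edge of the complex, had a lowest, median and highest value of 151, 202 and 272 FPKM in 5M-MR and of 233, 312 and 439 in 15M-MR. The groups overlapped, and 7 of 8 libraries of 15M-MR lay above the highest of 5M-MR. The difference was 0.68 (SE 0.153, limma adjusted p = 0.00458). Uqcr10, a neighbouring small subunit, went from 123, 139 and 206 FPKM to 164, 223 and 302, with 6 of 8 libraries above the highest of 5M-MR (0.57, SE 0.15, limma adjusted p = 0.00963). Of the 5 small subunits with a single locus these 2 passed, and Uqcrq (0.60), Uqcrh (0.35) and Uqcrb (0.19) did not. The core and redox subunits did not pass either: Uqcrc2 was at −0.14, Cyc1 at −0.074 and Uqcrfs1 at 0.16.

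In complex V the membrane subunit Atp5j2 had values of 142, 171 and 236 FPKM in 5M-MR (lowest, median and highest) and of 195, 276 and 352 in 15M-MR. Its difference was 0.65 (SE 0.144, limma adjusted p = 0.00423), and 7 of 8 libraries lay above all of 5M-MR. Atp5e, the smallest subunit of the catalytic head, had 108, 147 and 195 FPKM in 5M-MR and 160.0, 220.2 and 295 in 15M-MR (0.64, SE 0.152, limma adjusted p = 0.00623), again with 7 of 8 above and with overlap. Atp5d (0.41) and Atp5k (0.46) rose with them. The c ring genes Atp5g1, Atp5g2 and Atp5g3 had differences of 0.096, −0.019 and 0.046 and were not called. The catalytic subunit Atp5b was at −0.35 (limma adjusted p = 0.0628), and 1 of the 2 loci of Atp5a1, its partner in the head, fell by 0.37 and is uncertain.

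In complex I, 10 of 27 accessory genes with a single locus rose and 0 fell, with a median difference of 0.26. Ndufb2, in the membrane arm, had values of 62.6, 72.6 and 104 FPKM in 5M-MR and of 80.6, 115 and 149 in 15M-MR (0.56, SE 0.136, limma adjusted p = 0.00651). The groups overlapped in 1 library of 15M-MR, and the other 7 lay above the highest of 5M-MR. Ndufc1 (0.61), Ndufa1 (0.58), Ndufa2 (0.57) and Ndufa13 (0.51) rose by more than 0.5 as well, and Ndufs6 (0.42), Ndufa6 (0.41), Ndufs5 (0.41), Ndufb7 (0.40) and Ndufa8 (0.33) by less. Of the 5 core genes with a single locus, Ndufs8 rose (0.34) and Ndufv1 fell, and the median was −0.20. Ndufv1 had 28.7, 33.4 and 41.8 FPKM in 5M-MR and 22.2, 26.8 and 31.6 in 15M-MR, with 6 of 8 libraries below the lowest of 5M-MR (−0.34, SE 0.104, limma adjusted p = 0.0240). Without 5M-MR 4 its adjusted p was 0.0604.

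In complex II the flavoprotein Sdha, which oxidises succinate and so also belongs to the citric acid cycle, had 52.3, 61.6 and 70.8 FPKM in 5M-MR and 34.1, 45.5 and 53.4 in 15M-MR. Of the 8 libraries 7 lay below the lowest of 5M-MR, and the difference was −0.46 (SE 0.141, limma adjusted p = 0.0222). Without 15M-MR 5 its adjusted p was 0.0517. The other subunits did not pass, with Sdhb at 0.073, Sdhc at 0.29 and Sdhd at 0.050. In complex IV the small subunits Cox7c (0.51), Cox8a (0.51), Cox6c (0.50) and Cox6a1 (0.39) rose. Cox4i1, the form of subunit 4 in most tissues, was at 0.22 (limma adjusted p = 0.255). Of the 24 calls, 13 held without any 1 library. The count fell to 15 without 5M-MR 6 and lay between 16 and 33 without each other library. Shares of all loci are not given for these fits, so the counts cannot be read as changes of the members alone.

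**Figure D3:**
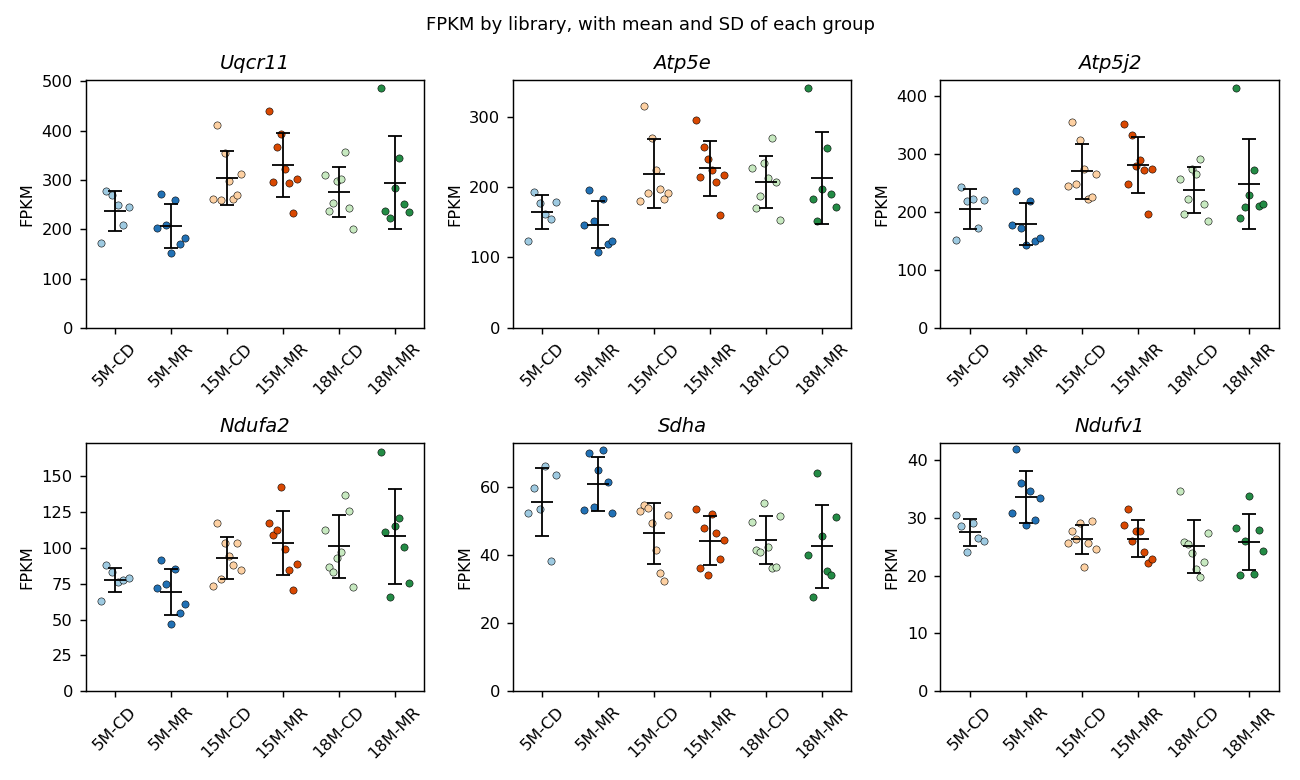
FPKM of 6 subunit genes in each library, with the mean and SD of each group as bars, all axes starting at 0. Uqcr11, Atp5e, Atp5j2 and Ndufa2 lie lower in 5M-MR than in 15M-MR, Sdha and Ndufv1 lie higher, and the groups overlap in every panel.

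At 18 against 5 months under MR, 18 of 85 members were called, 12 higher and 6 lower, where 29.3% of all loci were called, 15.3% higher and 14% lower. The share of members called, and the share higher, was below that of all loci. The median difference was 0.14, against −0.094 for all loci. This comparison shares its 5M-MR libraries with the previous one, so the values are set side by side without a test: 14 genes were called in both, all in the same direction. Sdha fell further in value (−0.55, SE 0.146, limma adjusted p = 0.00977), from the 5-month values above to 27.8, 40.0 and 64.3 FPKM in 18M-MR. Of 7 libraries 6 lay below the lowest of 5M-MR, and the seventh lay inside its range. Among the others that fell were Ndufv1 (−0.38), Ndufa10 (−0.29), Atp5b (−0.46) and 1 locus of Atp5a1 (−0.46). Atp5b had 390.4, 433 and 575 FPKM in 5M-MR and 226, 352 and 419 in 18M-MR, with 5 of 7 libraries below the lowest of 5M-MR.

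Among those that rose, Ndufa2, an accessory subunit of complex I, had 47.0, 72.1 and 91.4 FPKM in 5M-MR and 65.8, 111 and 167 in 18M-MR, with 5 of 7 above all of 5M-MR (0.61, SE 0.164, limma adjusted p = 0.0102). Atp5e (0.51), Uqcr11 (0.49), Ndufa13 (0.45), Atp5j2 (0.45), Cox6c (0.44), Ndufa1 (0.44), Atp5k (0.43), Ndufb2 (0.41), Ndufs5 (0.40) and Ndufa6 (0.38) rose too. Cox6a2, the muscle form of subunit 6a, was called at 18 months and not at 15. It had 3.80, 5.34 and 9.53 FPKM in 5M-MR and 7.10, 11.4 and 16.2 in 18M-MR, with 5 of 7 above all of 5M-MR (0.74, SE 0.245, limma adjusted p = 0.0237). In 15M-MR it had 3.53, 5.85 and 11.3. The 7 markers of fast-spiking and other interneurons, all found, summed to a median of 394 FPKM in 5M-MR (352 to 541), 381 in 15M-MR (279 to 533) and 504 in 18M-MR (369 to 610.0). Most of that sum came from Sst, with a median of 334 FPKM over all libraries, and Pvalb was next at 37.4. Under CD the sum of the 7 markers had medians of 513 FPKM at 5 months, 359 at 15 months and 469 at 18 months. The part of these markers in the level of Cox6a2 was not tested.

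These calls were less steady. Only Sdha and Ndufa2 held without any 1 library. The member median ran from 0.077 without 18M-MR 1 to 0.21 without 5M-MR 4. The count of 18 fell to 7 without 18M-MR 1, to 7 without 18M-MR 2, and to 9 without 18M-MR 6, 5M-MR 6 or 5M-MR 8. Here too shares of all loci are not given, so whether the members or the whole fit lost calls is left unstated. Of the 6 loci that fell, 5 were lost without 18M-MR 2, among them Ndufv1 (adjusted p = 0.0512 in limma), Atp5b (0.0722) and the locus of Atp5a1 (0.0511), and also Ndufa10. Atp5e was lost without 18M-MR 1 (0.0595), and Cox6a2 without any of 5M-MR 5, 5M-MR 6, 18M-MR 1 or 18M-MR 2 (up to 0.0637). Loci without a symbol held over 8% of the FPKM of 6 libraries, among them 18M-MR 1, 2 and 7, and without these 6 libraries 0 members and 0.177% of all loci were called. Fitting only the groups compared gave 0 members as well (2.61% of all loci), and lane as a factor gave 8, of which 1 was higher and 7 lower (28.8% of all loci).

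The 2 ages share lane 1 with 1 library of 18M-MR (number 2) and 2 of 5M-MR. There the member median was −0.34, against −0.32 for all loci, and 16 of 85 members were above 0. Of the 12 genes that rose in the whole comparison, Ndufs5, Atp5j2 and Ndufa1 were below 0 in this lane (−0.064, −0.12 and −0.011). Of those that fell, Sdha (−1.11), Atp5b (−1.10) and Ndufa10 (−1.08) were also below 0. Between 15 and 18 months under MR, 0 members were called (background 0.131%; unadjusted 7.41% of loci and 3 members). The member median was −0.088, against −0.074 for all loci, and ran from −0.15 without 18M-MR 1 to −0.041 without 18M-MR 2. The smallest p belonged to Cox6a2 (0.77, SE 0.237, limma adjusted p = 0.274), Atp5s (−1.21) and Atp5d (−0.24). Whether age acted differently under MR was tested by the interaction: 0 members were called for 15 against 5 months (background 0%) and 0 for 18 against 5 months (background 0.00769%). Unadjusted, 1 and 2 members and 3.49% and 7.13% of loci had p under 0.05. The smallest p belonged to Atp5s (1.40), Sdhc (0.43) and Ndufv1 (−0.27) in the first, and in the second to Cox6a2 (0.85, SE 0.348, limma adjusted p = 0.647) among genes with a single locus. The members called under MR and not under CD were not shown to differ between the diets. The median interaction of the members was 0.12 and 0.066. Without 1 library the first ran from 0.065 (5M-CD 4) to 0.19 (5M-MR 4) and the second from −0.0032 (18M-MR 1) to 0.14 (5M-MR 4), so the second changed sign. For the 2 interactions, the median half-width of a gene's 95% interval was 0.411 and 0.417.

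A level for each complex in each library, the median deviation of its genes from their means over all libraries, shows how the groups overlapped. In complex IV the level ran from −0.45 to 0.14 in 5M-MR, with a median of −0.25, and from −0.32 to 0.46 in 15M-MR, with a median of 0.21. Of 8 libraries 5 of 15M-MR lay above the highest of 5M-MR. In complex I the medians were −0.19 and 0.11, in complex III −0.19 and 0.19, and in complex V −0.14 and 0.11, with 1, 2 and 1 of 8 libraries above all of 5M-MR. Complex II had −0.049 and 0.0022. At 18 months the medians under MR were −0.087 in I, 0.047 in II, −0.028 in III, −0.014 in IV and −0.11 in V. Under CD the medians at 5, 15 and 18 months were −0.037, 0.0081 and −0.012 in complex I and 0.022, 0.063 and 0.065 in complex IV.

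**Figure D4:**
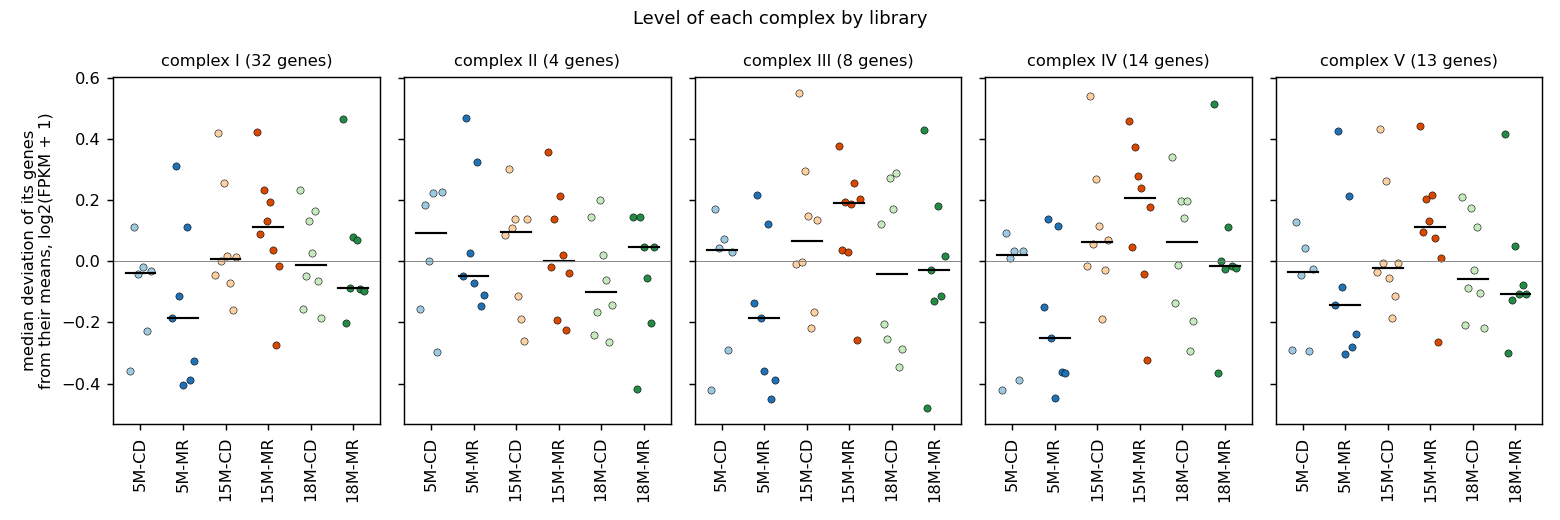
Median deviation of the genes of each complex from their means over all libraries, on the log2(FPKM + 1) scale, for each library by group, with a bar at the group median. The spread within groups is as wide as the differences between them, and 5M-MR has the lowest median in complexes I, III, IV and V.

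The differences also varied with transcript length. Of the 53 members of at most 1000 bases, 19 rose and 0 fell at 15 against 5 months under MR (35.8% higher), with a median difference of 0.31. Among all 1048 loci of that length tested, 199 rose (19.0%) and 8 fell, with a median of 0.23. Of the 31 members over 1000 bases, 2 rose (Ndufb2 and Ndufa13) and 3 fell, with a median of −0.038. Among all 7657 longer loci 157 rose and 707 fell, with a median of −0.16. At 18 against 5 months the short members had 10 higher and 0 lower (median 0.21) and the long ones 2 higher and 6 lower (median −0.15). All short loci had 160 higher and 29 lower (median 0.17), and all long ones 133 higher and 1550 lower (median −0.27). Among the 365 loci both short and at a median of at least 25 FPKM, 106 rose and 2 fell at 15 months, and 77 rose and 13 fell at 18 months. The length of 1000 bases and the level of 25 FPKM were set after values had been seen.

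Across 74 single-locus members with a length, the Pearson correlation of the difference with log2 length was −0.48 at 15 months and −0.61 at 18 months under MR. Across 8705 loci it was −0.36 at both. These are descriptions across genes of the same libraries, which are not independent, and all FPKM values are scaled by length. Under CD, with no member called, the short members had medians of 0.19 and 0.15 at 15 and 18 against 5 months and the long ones −0.040 and −0.13. With the trend on length over all loci taken out, the member median under MR was 0.044 at 15 months and 0.040 at 18 months. The roles within complexes differ in length: the accessory genes of complex I had a median length of 732 bases and the 5 core genes 1528.5, the small subunits of complex III 474.5, and Sdha had 2900.

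**Figure D5:**
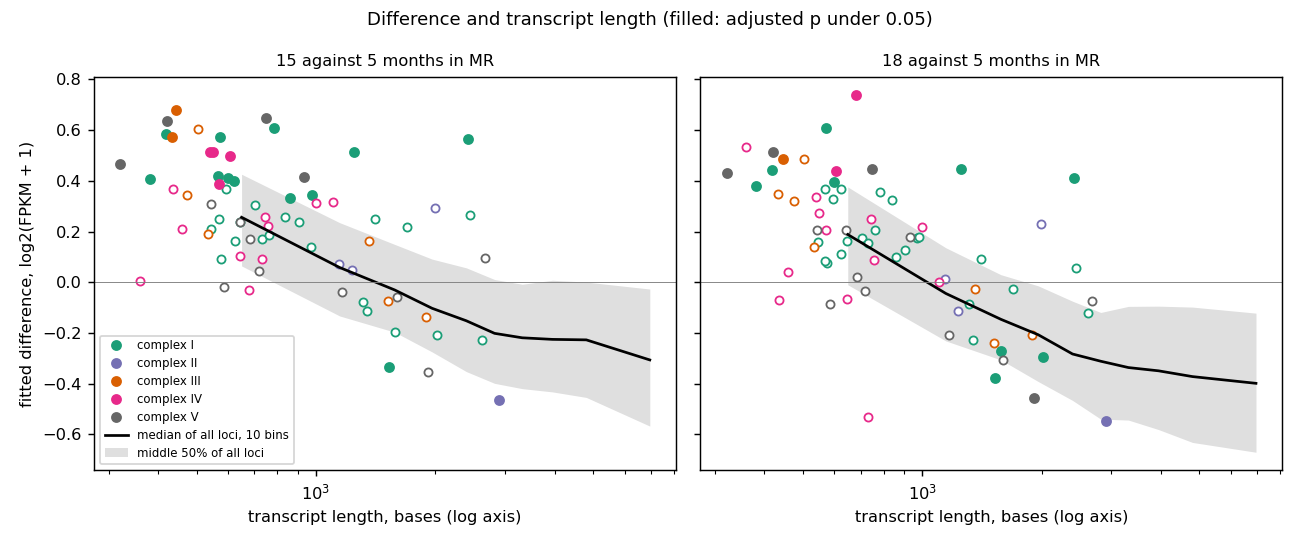
Fitted difference on the log2(FPKM + 1) scale against transcript length on a log axis for the subunit genes with a single locus (points, filled where the test was passed), at 15 and 18 against 5 months under MR. The line and band give the median and middle 50% of all loci in 10 length bins, and the points follow the downward course of the line.

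Measures of RNA composition moved with age under MR as well, and several of them also moved under CD. The share of FPKM in loci without a symbol had medians of 4.21% in 5M-MR, 5.91% in 15M-MR and 6.76% in 18M-MR. The loci carrying a mitochondrial rRNA gene held 4.09%, 7.11% and 8.50%, and 497, 681.5 and 726 loci were at 0. That mitochondrial share includes the merged locus that also holds most of the mitochondrial mRNAs. The 8 neuronal markers, all found, summed to 1601 FPKM (1497 to 1849) in 5M-MR, 1347 (1271 to 1564) in 15M-MR and 1176 (738 to 1568) in 18M-MR. Of 8 oligodendrocyte markers 7 were found, with sums of 601, 706 and 843, and the 8 microglial markers, all found, summed to 126, 183 and 182. Under CD at 5, 15 and 18 months, the share without a symbol had medians of 5.17%, 5.50% and 5.98%. The mitochondrial share was 6.40%, 7.27% and 6.55%, and 554, 636.5 and 599 loci were at 0. Neuronal sums under CD were 1438, 1342 and 1182, oligodendrocyte sums 720, 805 and 1053, and microglial sums 144, 168 and 182. The part of these measures in the differences above was not tested. With the share without a symbol as a covariate, 18 members were called at 15 months (8.03% of all loci) and 0 at 18 months (0.192% of all loci).

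The subunits read from the mitochondrial genome have no locus of their own here. Most of them stood in 1 merged locus together with the rRNA gene mt-Rnr1. Its label names ND1, ND3, ND4L, ND4, ND5, COX1, COX2, COX3, ATP6, ATP8 and CYTB, but not ND2 or ND6. This merged locus had a median of 4873 FPKM in 5M-MR, 7656 in 15M-MR and 9595 in 18M-MR. That locus did not pass at 15 against 5 months under MR (0.55, SE 0.256, limma adjusted p = 0.124) and rose at 18 months (0.82, SE 0.264, limma adjusted p = 0.0204). The rRNA gene mt-Rnr2 rose at both ages (1.06 at 15 months, limma adjusted p = 0.00984, and limma adjusted p = 0.0130 at 18 months). The merged locus cannot be split into mRNA and rRNA. A further 6 loci join a subunit with another gene and fell outside the rule. Of them the merged loci with Ndufa3 (0.45) and Cox7a2 (0.42) rose at 15 months under MR, and the first also rose at 18 months (0.40).

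Of other genes of the pathway, 38 loci of assembly factors had 6 higher and 0 lower at 15 against 5 months under MR, and 4 higher and 4 lower at 18 months. Over all loci 11.9% rose and 6.46% fell at 15 months, and 15.3% rose and 14% fell at 18 months, and the counts here and in the lists that follow are to be read against those shares. The medians of the assembly factors were 0.17 and 0.018. The copper chaperone Cox17 (0.59 and 0.61), the translation partner Cox14 (0.60 and 0.37) and Uqcc2, a complex III factor (0.57 and 0.37), rose at both ages, while Acad9, a complex I factor, fell at 18 months (−0.80). Of 21 loci of the citric acid cycle and pyruvate dehydrogenase, 0 rose and 2 fell at 15 months (among them the isocitrate dehydrogenase subunit Idh3b, −0.41). At 18 months 0 rose and 4 fell, among them Idh3b (−0.47), the citrate synthase Cs (−0.35) and Dlat of pyruvate dehydrogenase (−0.44). Their medians were −0.11 and −0.24. Of all loci over 1000 bases, 20.2% fell at 18 months. Slc25a3, the phosphate carrier, was the only one of 8 loci of ADP, ATP and phosphate transport to pass, and fell at both ages (−0.46 and −0.54). Of 12 loci of regulators of mitochondrial biogenesis, Lrpprc, which stabilises mitochondrial mRNAs, fell at both (−0.40 and −0.38). Of 14 loci of electron carriers, Etfb rose at 15 months (0.41) and Coq9 fell at 18 months (−0.38). No member of these lists passed in a diet comparison, and under CD 1 of 2 loci of Pdhx, a pyruvate dehydrogenase subunit, fell at 18 months (−1.87, uncertain).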

How the data were processed

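Hippocampal total RNA in 44 libraries was sequenced on the BGI-500 platform. Per the submitters' processing notes, Trimmomatic 0.38, HISAT2 and StringTie 1.3.4d were used on GRCm38.p6, with their settings not given in the sources used here. The authors deposited FPKM per assembled locus in 1 table, and these values hold no read counts. Loci reaching 1 FPKM in 6 or more libraries were kept, and log2(FPKM + 1) was modelled by group (6 means) in limma 3.58.1 under R 4.3.3, with an intensity trend and 38 residual degrees of freedom. There were 12 comparisons, with two-sided p adjusted over the 13009 loci of each. The fit was tested on simulated data. No 2 libraries were alike (correlations 0.665 to 0.937). Same-numbered libraries of different groups deviated together (correlation over 0.1) in 14 of 81 pairs. Pairs with different numbers were not examined, so this cannot settle whether the numbers pair libraries. The main fit did not use the numbers. The members, lists and rule for named genes were chosen with earlier results of these data known. The rule names every member past the test, the 3 with the smallest p where none passes, the highest, lowest and most variable member of each complex, isoform families and catalytic subunits, with examples given; a few genes are not reported here. Positions and lengths come from GENCODE M21, promoters from RefSeq, and plots from matplotlib 3.10.9. Alternatives were another pseudocount, other filters, other scalings, fits with lane, the replicate number, array weights or a covariate, and leaving out libraries. The restriction to symbols with 1 locus and the length trend were added after the data were seen.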

Additional observations from a re-analysis of the deposited data

Results flagged for a closer look

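A single library stood apart from the rest of its group in 10 of 210 groups examined, where chance gives about 1 in 20. In 18M-MR 1 the level of complex I was 0.4668, next to 0.0793 in the nearest library. The same library held the highest value of its group for Atp5j2 (413.611 FPKM, nearest 271.9073), Cox6c (133.0541, nearest 100.3257), Cox8a (1206.6847, nearest 834.7237) and Ndufs8 (54.5648, nearest 38.997). In 18M-CD 1, Cox6a1 was at 922.3961 FPKM (nearest 763.2405) and Cox6a2 at 15.7874 (nearest 8.7627). Cox8a was at 925.3262 FPKM in 5M-MR 7 (nearest 705.6122), Ndufa1 at 150.011 in 15M-CD 2 (nearest 115.3708) and Ndufa10 at 99.5652 in 5M-MR 4 (nearest 70.5361). Every one of these 10 was the highest value of its group. No member had all MR libraries above the CD mean at an age and all below it at another age. No member was called for an interaction.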

How the results depend on the processing

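Shares in brackets are of all loci in the same fit. They are not given for the ranges from leaving out 1 library, which cannot be read as changes of the members alone. At 15 against 5 months under MR, the 24 members called became 0 with lane as a factor (0.108%) and 43 with array weights (36.2%), and ranged from 15 to 33 when 1 library was left out. They were 31 with quantile normalization (14.5%) and 29 with rescaling to loci with a symbol (17.2%). Fitting only the groups compared gave 25 (28.9%), and leaving out the libraries with over 8% of FPKM in loci without a symbol gave 21 (21.5%). In these 2 fits the share of members called lay closer to that of all loci than in the main fit. At 18 against 5 months under MR, the 18 called became 33 (28 higher, 5 lower) with quantile normalization (26%) and 32 with rescaling (29%). They became 0 when only the groups compared were fitted (2.61%), 8 with lane (28.8%), 0 with the covariate (0.192%) and 0 without the 6 libraries over 8% (0.177%), and ranged from 7 to 23 without 1 library. The median at 18 against 15 months under MR moved from −0.088 to −0.32 with lane. Array weights called 4 members at 5 months (MR against CD, all lower). The share of all loci in that comparison was not recorded, so this count has no background to be read against. Array weights also called 8 at 18 against 5 months under CD (1 higher and 7 lower, 13%), where the member median turned from 0.070 to −0.022. With a replicate block from the sample names' numbers, 18 (9.63%) and 7 (17.8%) members were called in the 2 MR comparisons. Pseudocount and filters left 24 or 25 and 18. The causes were not tested. Of values for the named members, 776 kept direction and side of the threshold, 152 lost the call, 3 gained it and 0 reversed. The 776 include values of members not called in the main fit, which had no call to lose. This tally therefore does not measure how steady the calls were. Depth is unknown, so low values such as Cox4i2 carry an error that cannot be stated.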
